A study of Mus musculus with 8 samples.

Results

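The genes described here are 34 genes of protein folding and quality control in the endoplasmic reticulum (ER): 11 chaperones and co-chaperones, 5 disulfide isomerases, 10 genes of ER-associated degradation (ERAD), 4 sensors and regulators, and 4 genes of translocation into and export from the ER. They were chosen by name from a list, and each is represented by its brightest probe set among those that the platform's annotation assigns to that gene alone. All 34 of 34 were measured, among 18193 genes in all. Each array gives 1 value per probe set on a log2 scale, made with RMA (a method that corrects, scales and summarises probe brightness), and a difference is Cebpg-/- minus WT. All samples are MEFs, fibroblasts cultured from mouse embryos, here of strain C57BL/6 at E13.5, collected at passage 3, 48 hours after plating. A group of 4 arrays is labelled WT and a group of 4 arrays Cebpg-/-, which denotes loss of both copies of the gene. The labels name no drug or stress agent for either group. The labels call the 4 arrays of a group biological replicates. How the Cebpg allele was made, and whether each replicate is 1 embryo or a pool, is not given in the sources used here, so the tests rest on the scatter among these samples.

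Proteins that enter the secretory pathway fold in the ER with the help of the chaperone BiP (encoded by Hspa5), the lectin chaperones calnexin and calreticulin, and enzymes that form disulfide bonds. Proteins that fail to fold are drawn back through the ER membrane and degraded in the cytosol, which is ERAD. When unfolded protein builds up, the sensors IRE1, ATF6 and PERK start the unfolded protein response (UPR): IRE1 splices the mRNA of the transcription factor XBP1, ATF6 is cut to release a transcription factor, and PERK acts through the translation factor eIF2 and the transcription factor ATF4. XBP1 and ATF6 raise chaperone and ERAD genes, while ATF4 raises genes of amino acid supply. C/EBPγ, the product of Cebpg, is a basic leucine zipper protein that can pair with ATF4 on DNA. Fibroblasts secrete collagen in bulk and keep a large ER.

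Of the 34 genes 9 fell and none rose in Cebpg-/- cells (limma, Benjamini-Hochberg adjusted p under 0.05), and 25 did not pass. Over all genes tested 3.99% were called lower and 8.62% called higher (726 and 1569 genes, which became 864 and 1131 after quantile normalization and 584 and 2188 after subtracting array medians). The 9 genes were Sec24d, Xbp1, Pdia6, Derl1, Herpud1, Hyou1, P4hb, Manf and Hspa5, with changes from -0.61 to -0.22 on the log2 scale, and none reached a change of 2-fold. At an unadjusted p under 0.05, 18 of the 34 were lower and 1, Dnajb9, was higher. Of all 18193 genes 1977 were lower and 3184 higher at that cut. The change was below 0 in 27 of the 34 genes, with a median of -0.15, where it was below 0 in 50.3% of all genes, with a median of 0.00. In 17 of the 34 genes all 4 Cebpg-/- values lay below all 4 WT values, and in none did they lie above them. Over all genes these shares were 6.74% and 12.8%. The 34 genes were brighter than most, with a median level of 8.36 against 4.20 over all genes. With dim probe sets left out 12 of the 34 and 6.72% of the genes tested were called lower. Shares at matched brightness were not computed. The count of 9 was 5 without Cebpg-/- replicate 1 and 5 without Cebpg-/- replicate 3, where 2.17% and 2.3% of all genes were called lower. Derl1 alone passed when WT replicate 1 and Cebpg-/- replicate 1 were both left out, where that share was 1%. Cell type markers moved alongside: all 20 leukocyte markers measured were higher on average in Cebpg-/-. Of 14 fibroblast markers 7 were called lower, and 3 were higher on average and not called. When the fit held a term for mean leukocyte marker level, the count was 1, and 0.577% of all genes were called lower.

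**Figure D1:**
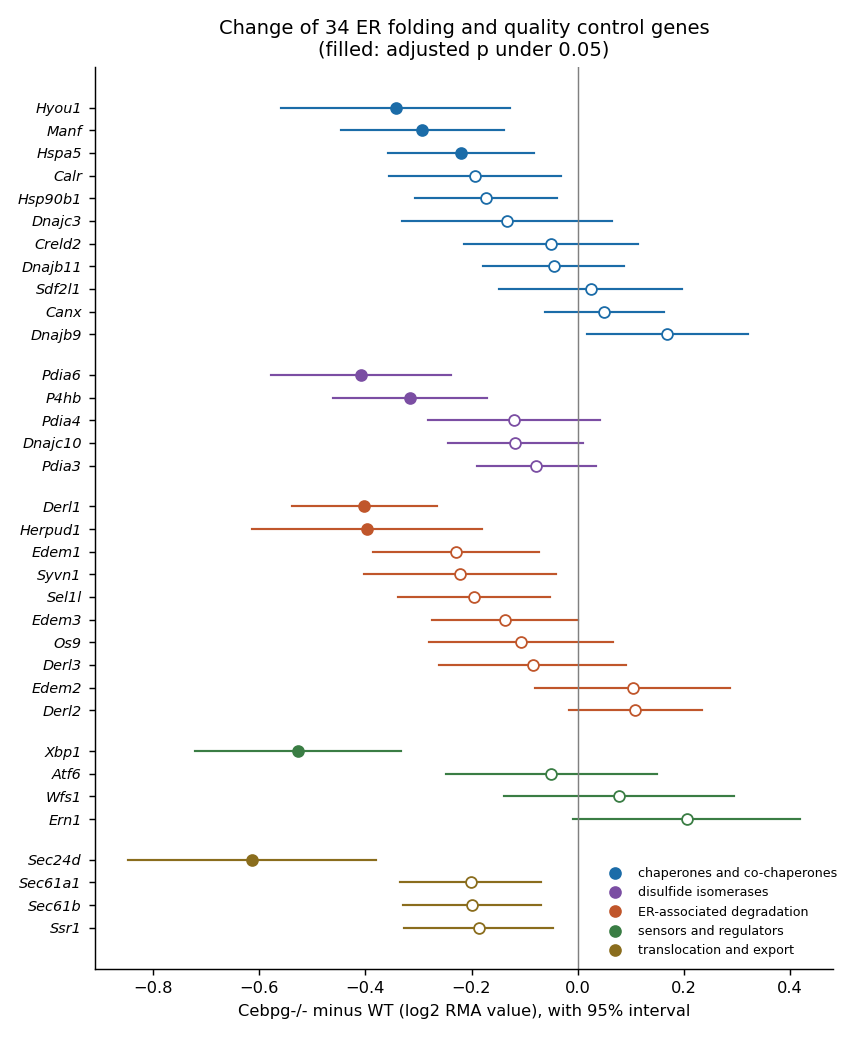
Change of each of the 34 genes, Cebpg-/- minus WT on the log2 scale (x axis), with its 95% interval from limma (lines) and the genes grouped by role and colour; filled points passed at an adjusted p under 0.05. The 9 filled points lie between -0.61 and -0.22, and every role has at least 1 of them.

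The median change of a role ran from -0.20 to 0.01. It was -0.13 for chaperones and co-chaperones, -0.12 for disulfide isomerases, -0.17 for ERAD, 0.01 for sensors and regulators, and -0.20 for translocation and export. Mean levels were 9.28 ± 0.04 in WT and 9.17 ± 0.05 in Cebpg-/- for the chaperones (SD, n = 4), 9.76 ± 0.05 and 9.55 ± 0.08 for the disulfide isomerases, 7.14 ± 0.01 and 6.99 ± 0.06 for ERAD, 6.94 ± 0.10 and 6.87 ± 0.09 for the sensors, and 10.17 ± 0.07 and 9.87 ± 0.10 for translocation and export. The sensors are the role whose arrays overlapped between the genotypes, and its median changed sign between settings of the analysis. No difference between roles was tested.

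The arrays were first checked for the targeted gene and for other cells. Of 3 probe sets that name Cebpg, 1 fell to 58.1% of WT (with p adjusted over the probe sets, limma gave 0.000593), and the others, at 88.6% and 119% of WT, did not pass. Their position relative to the deletion is not given in the labels. All 14 of 14 fibroblast markers lay above the median probe set value of 2.73. Their mean ranged from 9.42 to 9.70 in WT and from 9.10 to 9.45 in Cebpg-/-, and 7 of the 14, among them Col1a1, Col3a1 and Pdgfrb, were called lower. The fibroblast list did not move as 1: 3 of the 14, Lum (1.07), S100a4 (0.08) and Vim (0.02), were higher on average and not called, and Dcn was at -0.01. Of 20 leukocyte markers 19 lay above that median, and all 20 were higher on average in Cebpg-/-, 17 at an unadjusted p under 0.05 and 1 (Cd14) after adjustment. Their mean ranged from 3.57 to 5.44 in WT and from 4.87 to 7.55 in Cebpg-/-, with WT replicate 1 the lowest and Cebpg-/- replicate 1 the highest of the 8. Means of epithelial, endothelial, skeletal muscle, neural and cartilage markers lay between 2.67 and 4.32 on every array, the mean of 3 adipocyte markers between 3.94 and 6.47, and 0 of 4 erythroid markers exceeded the median probe set. In such bulk samples fewer cells of a type and less RNA per cell cannot be told apart.

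The promoters of the 34 genes are shown because factors of the UPR act through short sites in promoters. ER stress response elements (ERSE: CCAAT, any 9 bases, CCACG) and ERSE-II (ATTGG, any 1 base, CCACG) are bound by ATF6, and by XBP1 for some of them, next to the factor NF-Y. The UPR element (UPRE: TGACGTGG) is bound by XBP1 and related factors, and the C/EBP-ATF composite site (CARE: TGATG, any 1 base, AA) by dimers of ATF4 with a C/EBP protein. Windows from 250 bases before to 50 after a start site were taken from a RefSeq promoter table of build GRCm38.p6, both strands were searched for exact matches, and 29 of the 34 genes had a window (Atf6, Derl1, Hyou1, Manf and Sec61a1 had none). An ERSE stood in 9 of the 29 genes (Calr, Canx, Creld2, Derl3, Dnajc3, Hsp90b1, Hspa5, Pdia6 and Syvn1), against 37 of all 27025 genes with a window (0.137%). An ERSE-II stood in Dnajb11 and Herpud1, against 0.0444% of all genes, and a UPRE in Sec24d, against 0.714%. A CARE stood in Herpud1, against 4.51% of all genes, and no window of the 29 held the palindrome TGACGTCA (the cyclic AMP response element), which 2.03% of all genes had. ERSE, ERSE-II and UPRE matches did not overlap each other in these windows.

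The 250 bases before the start site are given for the 3 genes that fell and hold an ERSE or ERSE-II, written 5′ to 3′ along the gene with motif matches in capitals. They lie at chr2:34771840-34772089 (Hspa5), chr12:17266339-17266588 (Pdia6) and chr8:94386179-94386428 (Herpud1), all on the plus strand. In Herpud1 the first run of capitals is the CARE, read on the opposite strand, and the second the ERSE-II.
Hspa5: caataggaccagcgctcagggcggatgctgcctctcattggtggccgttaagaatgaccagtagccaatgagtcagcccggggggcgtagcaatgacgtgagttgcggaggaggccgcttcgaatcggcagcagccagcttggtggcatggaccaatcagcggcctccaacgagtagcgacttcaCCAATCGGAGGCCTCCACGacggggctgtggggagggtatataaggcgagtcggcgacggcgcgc
Pdia6: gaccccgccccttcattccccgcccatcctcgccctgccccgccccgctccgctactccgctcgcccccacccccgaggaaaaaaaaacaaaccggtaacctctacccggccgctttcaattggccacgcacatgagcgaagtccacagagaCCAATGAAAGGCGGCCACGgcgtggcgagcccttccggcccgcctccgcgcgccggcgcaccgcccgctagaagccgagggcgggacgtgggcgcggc
Herpud1: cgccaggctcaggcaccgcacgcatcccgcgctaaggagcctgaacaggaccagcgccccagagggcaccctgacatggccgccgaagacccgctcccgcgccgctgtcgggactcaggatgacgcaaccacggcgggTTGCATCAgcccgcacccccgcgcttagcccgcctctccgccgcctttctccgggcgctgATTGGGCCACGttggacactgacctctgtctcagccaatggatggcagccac

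The ERSE sites of the 7 members that did not pass are shown with 10 bases on each side, followed by the ERSE-II of Dnajb11, which did not pass either and whose site lies after the start, and the UPRE of Sec24d, which fell. A run that starts with CGTGG is an ERSE on the opposite strand. Hsp90b1 has a pair of them, both shown.
Hsp90b1 (first): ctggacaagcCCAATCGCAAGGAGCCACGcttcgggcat
Hsp90b1 (second): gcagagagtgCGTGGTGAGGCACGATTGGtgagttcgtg
Calr: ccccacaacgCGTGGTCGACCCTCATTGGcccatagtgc
Canx: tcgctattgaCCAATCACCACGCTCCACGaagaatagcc
Dnajc3: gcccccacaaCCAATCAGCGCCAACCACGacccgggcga
Creld2: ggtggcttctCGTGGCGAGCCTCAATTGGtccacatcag
Syvn1: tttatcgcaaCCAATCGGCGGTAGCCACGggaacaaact
Derl3: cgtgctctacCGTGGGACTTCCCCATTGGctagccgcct
Dnajb11 (ERSE-II): ATTGGCCCACG
Sec24d (UPRE): cccgggcgccTGACGTGGcactagcaac

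Of the 11 genes with an ERSE or ERSE-II 3 fell (Hspa5, Pdia6 and Herpud1), 10 had a change below 0 and the median change was -0.17. Of the 18 genes with a window and neither element 3 fell (P4hb, Xbp1 and Sec24d), 12 had a change below 0 and the median was -0.12. A match describes letters in a window and was not tested as a binding site.

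Among chaperones and co-chaperones, Hspa5, Manf and Hyou1 fell and 8 genes did not pass. Hspa5 encodes BiP, the HSP70 of the ER. It read 11.23, 11.37, 11.34 and 11.29 on WT replicates 1 to 4 and 11.02, 11.10, 11.04 and 11.19 on Cebpg-/- replicates 1 to 4, so that all Cebpg-/- arrays lay below the lowest WT array by a small step. The change was -0.22 ± 0.06 (SE), or 85.8% of WT (limma, adjusted p = 0.0432). The other 2 Hspa5 probe sets changed by -0.21 and -0.35. Manf, a small secreted ER protein that binds BiP and is raised by ER stress, read 9.98, 10.09, 9.92 and 9.91 in WT and 9.56, 9.79, 9.64 and 9.73 in Cebpg-/- (-0.29 ± 0.07, 81.6% of WT, limma adjusted p = 0.0224). Hyou1, an HSP70-related nucleotide exchange factor of BiP, read 7.62, 7.63, 7.82 and 8.07 in WT and 7.49, 7.46, 7.35 and 7.48 in Cebpg-/-. Its WT values were spread more widely than its Cebpg-/- values, and the change was -0.34 ± 0.10 (limma, adjusted p = 0.0445).

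The calls of these 3 chaperone genes depended on single arrays. That of Hspa5 was lost without any 1 of 7 arrays, with an adjusted p from 0.0580 (WT replicate 4) through 0.0609 (WT replicate 1), 0.0653 (Cebpg-/- replicate 2), 0.0910 (WT replicate 2), 0.0987 (WT replicate 3) and 0.117 (Cebpg-/- replicate 3) to 0.119 (Cebpg-/- replicate 1), while its change stayed between -0.26 and -0.20. That of Hyou1 was lost without WT replicate 3 (0.101) or Cebpg-/- replicate 1 (0.0894), 2 (0.0682), 3 (0.119) or 4 (0.0848), and that of Manf without WT replicate 1 (0.0615) or Cebpg-/- replicate 1 (0.0680) or 3 (0.0663).

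The 8 chaperone genes that did not pass lay between -0.19 and 0.17. Hsp90b1 (GRP94, the HSP90 of the ER) read 11.02, 11.03, 10.95 and 11.16 in WT and 10.83, 10.91, 10.85 and 10.88 in Cebpg-/-, without overlap (-0.17, 95% interval -0.31 to -0.04, limma adjusted p = 0.0875). Calr (calreticulin) was at -0.19 with an interval of -0.36 to -0.03, and Dnajc3 (a J-domain co-chaperone that inhibits PERK) at -0.13 with one of -0.33 to 0.06. Intervals on both sides of 0 were found for Canx (calnexin; 0.05, -0.06 to 0.16), Dnajb11 (ERdj3, a co-chaperone of BiP; -0.05, -0.18 to 0.09), Creld2 (an ER protein raised by stress; -0.05, -0.21 to 0.11) and Sdf2l1 (a partner of BiP and Dnajb11; 0.02, -0.15 to 0.20). Dnajb9 (ERdj4, a classical XBP1 target) lay on the other side: it read 7.42, 7.50, 7.40 and 7.46 in WT and 7.74, 7.47, 7.57 and 7.68 in Cebpg-/-, a difference of 0.17 (0.02 to 0.32) that did not pass (limma, adjusted p = 0.135). Only Cebpg-/- replicate 2 fell inside the range of the WT arrays for Dnajb9. The second brightest probe set of Dnajc3 was at -0.19 (-0.32 to -0.06) and that of Canx at 0.15 (0.01 to 0.30). Neither passed over all probe sets, and the dimmer ones of both genes had intervals on both sides of 0. By their brightest probe sets calnexin and calreticulin, which share the task of holding glycoproteins, thus gave 0.05 and -0.19. The difference between them was not tested.

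**Figure D2:**
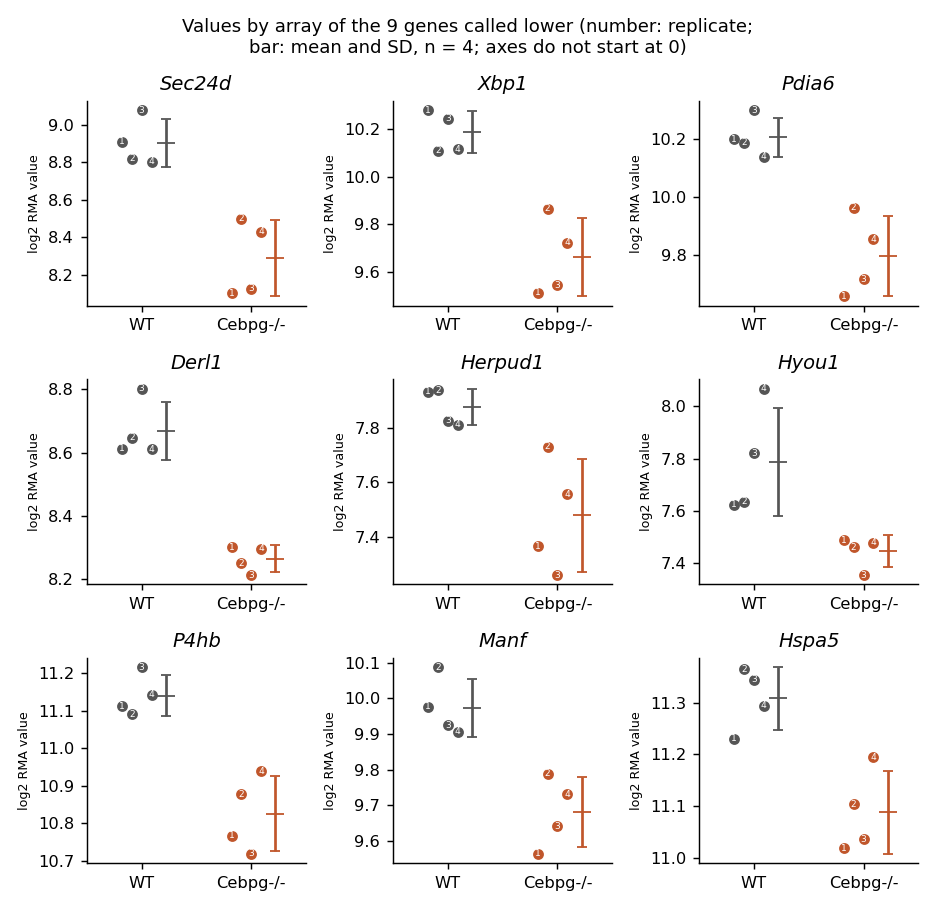
Values on each array (points, numbered by replicate) of the 9 genes called lower, as log2 RMA values on axes that do not start at 0, with the mean and SD of the 4 arrays of each genotype (bars). In each panel all Cebpg-/- points lie below all WT points, and the lowest point is Cebpg-/- replicate 1 or 3.

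Among disulfide isomerases Pdia6 and P4hb fell, and Pdia3, Pdia4 and Dnajc10 did not pass. Pdia6, an isomerase that acts with BiP, read 10.20, 10.19, 10.30 and 10.14 in WT and 9.66, 9.96, 9.72 and 9.85 in Cebpg-/-, or 75.3% of WT (-0.41 ± 0.08, limma adjusted p = 0.00872). P4hb encodes protein disulfide isomerase, which is also the beta subunit of the enzyme that hydroxylates prolines of collagen. It read 11.11, 11.09, 11.22 and 11.14 in WT and 10.77, 10.88, 10.72 and 10.94 in Cebpg-/- (80.3% of WT, -0.32 ± 0.07, limma adjusted p = 0.0134). Both genes stood clear of the WT range on every Cebpg-/- array, and both passed without any 1 of the 8 arrays. Dnajc10 (ERdj5, a reductase that serves ERAD) read 7.73, 7.77, 7.85 and 7.77 in WT and 7.60, 7.75, 7.65 and 7.65 in Cebpg-/-, with overlap (-0.12, -0.25 to 0.01, limma adjusted p = 0.208). Pdia4 (ERp72) was at -0.12 (-0.28 to 0.04) and Pdia3 (ERp57, the isomerase that works with calnexin and calreticulin) at -0.08 (-0.19 to 0.03). Pdia3 had the tightest replicates of the 34 genes in WT (11.25 ± 0.01, SD, n = 4) and no overlap between the genotypes.

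In ERAD, Derl1 and Herpud1 fell and 8 genes did not pass. Derl1 encodes derlin-1, a membrane protein of the channel through which substrates leave the ER. It read 8.61, 8.65, 8.80 and 8.61 in WT and 8.30, 8.25, 8.21 and 8.30 in Cebpg-/-, with a gap between the groups that exceeds the spread of either (75.7% of WT, -0.40 ± 0.06, limma adjusted p = 0.00364). All 4 of its probe sets changed by nearly the same amount, from -0.40 to -0.37, and each passed over all probe sets. Neither of its relatives passed: Derl2 was at 0.11 (-0.02 to 0.23) and Derl3 at -0.08 (-0.26 to 0.09). Herpud1 (HERP, which brings ubiquitin ligase complexes together) read 7.93, 7.94, 7.83 and 7.81 in WT and 7.37, 7.73, 7.26 and 7.56 in Cebpg-/-. Its Cebpg-/- arrays were spread over a wide range, with replicate 2 just below the lowest WT array (75.9% of WT, -0.40 ± 0.10, limma adjusted p = 0.0263). Herpud1 no longer passed when WT replicate 1 (adjusted p = 0.0781), 2 (0.0582) or 3 (0.0546) or Cebpg-/- replicate 1 (0.0796) or 3 (0.0662) was left out. Herpud1 is the gene among the 29 whose window holds both an ERSE-type site and a CARE.

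The core of the main ERAD ligase did not pass, with values below 0. Sel1l, its adaptor, was at -0.20 (95% interval -0.34 to -0.05, limma adjusted p = 0.0768) and Syvn1 (HRD1, the ligase itself) at -0.22 (-0.40 to -0.04, limma adjusted p = 0.103). Of the mannosidase-like proteins that mark misfolded glycoproteins, Edem1 was closest to the threshold. It read 8.39, 8.41, 8.43 and 8.45 in WT and 8.28, 8.06, 8.09 and 8.33 in Cebpg-/-, below all WT arrays (-0.23, -0.39 to -0.07, limma adjusted p = 0.0598), and it passed without Cebpg-/- replicate 4 (0.0451). The dimmer Edem1 probe set changed by -0.10 (-0.26 to 0.06), with overlap between the genotypes. Edem3 was at -0.14 and Edem2 at 0.10 (-0.08 to 0.29), and Os9, a lectin that hands glycans to the ligase, at -0.11 (-0.28 to 0.07).

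Among sensors and regulators Xbp1 fell, and the sensors proper did not pass. Xbp1 read 10.28, 10.11, 10.24 and 10.12 in WT and 9.51, 9.87, 9.54 and 9.72 in Cebpg-/-, or 69.4% of WT (-0.53 ± 0.09, limma adjusted p = 0.00505). The highest Cebpg-/- array lay well below the lowest WT array. Its 4 probe sets changed by -0.53, -0.53, -0.55 and -0.32, and the first 3 passed over all probe sets. The spliced form of Xbp1 mRNA was not analysed here. Ern1 (IRE1 alpha, the sensor that splices Xbp1) read 5.50, 5.39, 5.70 and 5.55 in WT and 5.84, 5.58, 5.61 and 5.93 in Cebpg-/-, with overlap (0.21, -0.01 to 0.42, limma adjusted p = 0.192), and its 4 dimmer probe sets lay between -0.09 and 0.04. Atf6 was at -0.05 (-0.25 to 0.15) and Wfs1, an ER membrane protein mutated in Wolfram syndrome, at 0.08 (-0.14 to 0.29). The signs of Atf6 and Wfs1 changed between settings of the analysis.

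Of the genes of translocation and export Sec24d fell, with the largest change of the 34. Sec24d encodes a cargo-binding subunit of COPII, the coat of vesicles that leave the ER. It read 8.91, 8.82, 9.08 and 8.80 in WT and 8.10, 8.50, 8.12 and 8.43 in Cebpg-/-, with no overlap (65.3% of WT, -0.61 ± 0.10, limma adjusted p = 0.00588). Sec61b, a subunit of the channel through which proteins enter the ER, read 10.67, 10.69, 10.73 and 10.63 in WT and 10.43, 10.59, 10.43 and 10.48 in Cebpg-/- (-0.20, -0.33 to -0.07, limma adjusted p = 0.0520). Sec61a1, the channel's pore, was at -0.20 (-0.33 to -0.07, limma adjusted p = 0.0538) and Ssr1, a subunit of the complex beside the channel, at -0.19 (-0.33 to -0.05, limma adjusted p = 0.0815). All 4 genes of this role were without overlap between the genotypes. Sec61b passed without Cebpg-/- replicate 2 (0.0317), and Sec61a1 without WT replicate 2 (0.0485) or Cebpg-/- replicate 2 (0.0439). Of 6 Sec61a1 probe sets all were below 0 and the third and the sixth brightest, at -0.34 and -0.45, passed over all probe sets.

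**Figure D3:**
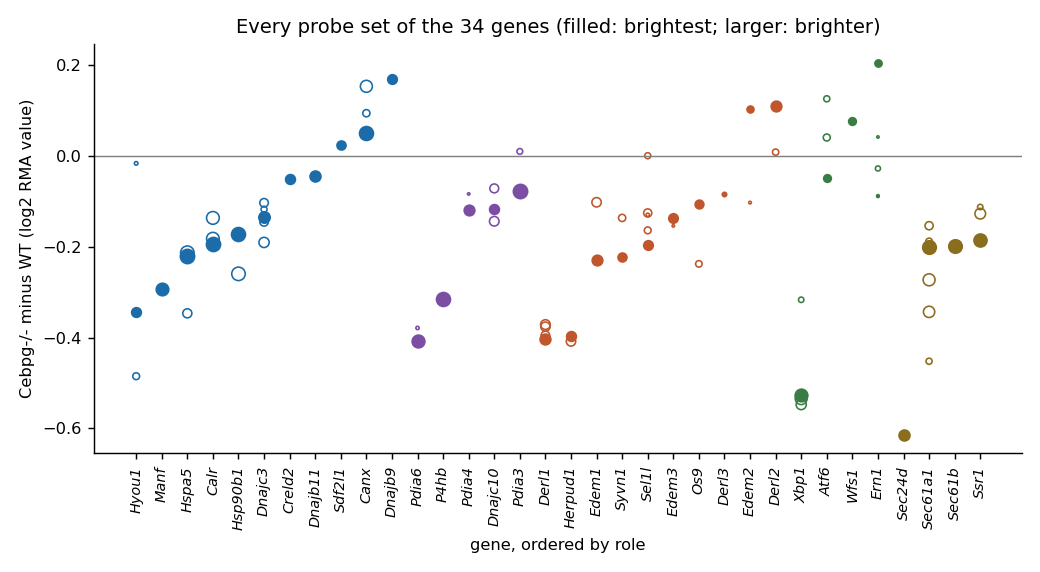
Change of every probe set of the 34 genes, Cebpg-/- minus WT on the log2 scale (y axis), with genes in order of role on the x axis; filled circles are the brightest probe set of a gene, open circles its others, and larger circles are brighter. Of 83 probe sets 68 lie below 0, where 50.3% of all genes do, each by its brightest probe set. Those of Derl1 lie together, as do those of Xbp1 apart from its dimmest, while those of Sec61a1 and Hyou1 are spread.

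Probe sets of the same gene mostly moved alike. Of 83 probe sets 68 were below 0, where 50.3% of all genes were, each by its brightest probe set. With p adjusted over all probe sets 17 of the 83, from 9 genes, were called lower and none higher. At that adjustment 590 of all 18193 genes (3.24%) were called lower and 1294 higher by their brightest probe sets. Probe sets of 1 gene are not independent, and shares over all probe sets were not counted. Of the 9 called genes 6 had several probe sets. In Pdia6 and Herpud1 both probe sets passed over all probe sets, at -0.41 and -0.38 and at -0.40 and -0.41. With p adjusted over all probe sets none of the 3 probe sets of Hyou1 passed (changes from -0.49 to -0.02; adjusted p = 0.0601 for the brightest), and neither did the brightest of Hspa5 (0.0585), while its dimmest did (0.0272). Manf, P4hb and Sec24d had 1 probe set each, so no second one could be compared.

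**Figure D4:**
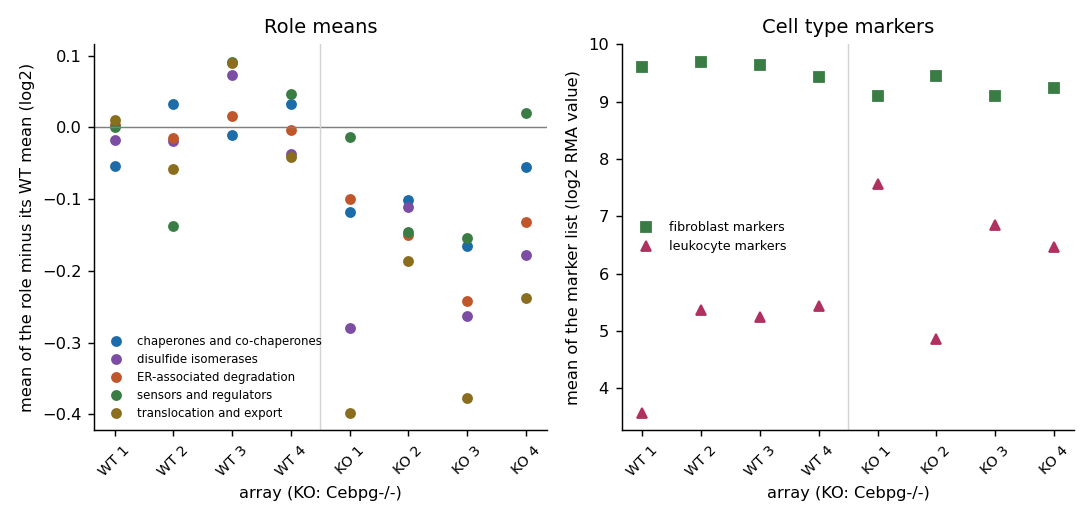
Left, the mean of each role on each array minus its WT mean (log2 scale, y axis) against the 8 arrays (x axis); right, the mean of the 14 fibroblast and 20 leukocyte markers on the same arrays as log2 RMA values. Role means of Cebpg-/- replicates 1 and 3 are the lowest for chaperones and co-chaperones, for disulfide isomerases and for translocation and export. The ERAD mean of Cebpg-/- replicate 1 is the highest of the Cebpg-/- arrays but lies below every WT array. Cebpg-/- replicates 1 and 3 have the highest leukocyte means, 7.55 and 6.84.

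For 7 of the 9 called genes the highest Cebpg-/- value was on replicate 2 or 4, and for 9 of the 9 the lowest was on replicate 1 or 3. The translocation and export mean was 9.77, 9.98, 9.79 and 9.93 on Cebpg-/- replicates 1 to 4, where the leukocyte mean was 7.55, 4.87, 6.84 and 6.47 and the fibroblast mean 9.10, 9.45, 9.11 and 9.24. Among the Cebpg-/- arrays the ERAD mean, at 7.04, 6.99, 6.90 and 7.01, was highest on replicate 1. The sensor mean, at 6.93, 6.80, 6.79 and 6.96, was second highest there. On WT replicates 1 to 4 the translocation and export mean was 10.18, 10.11, 10.26 and 10.12, where the leukocyte mean was 3.57, 5.37, 5.24 and 5.44. With the leukocyte mean as a covariate 1 of the 34 genes passed, Derl1 (-0.43, limma adjusted p = 0.0391), where the same fit called 1.81% of all genes, 0.577% as lower. In that fit Xbp1 was at -0.35 (adjusted p = 0.0686), Sec24d at -0.46 (0.101), Pdia6 at -0.30 (0.146), Herpud1 at -0.23 (0.335), P4hb at -0.28 (0.164), Hyou1 at -0.41 (0.156), Hspa5 at -0.22 (0.248) and Manf at -0.22 (0.276).

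Other genes of the secretory pathway were compared through lists of each role's neighbours, whose counts stand beside the shares over all genes, 3.99% called lower and 8.62% called higher. Of 24 measured genes of ER export and retrieval 10 fell and none rose (0 also at an unadjusted p under 0.05), with a median change of -0.14. The 3 with the lowest p were Sec24a (-0.45), Kdelr3 (a receptor that retrieves ER proteins; -0.90) and Sec23a (the inner COPII coat; -0.53), with limma adjusted p = 0.00320, 0.00344 and 0.00384. Of the 21 export genes with a window Kdelr3 and Sec23a hold a UPRE, as Sec24d does among the 34 genes. The UPRE also stood in Ube2j1, Vcp, Txndc5 and Txndc11 of the other lists, none of which was called. Of 26 genes of the translocon, signal peptidase and glycosylation 5 fell and none rose (2 at an unadjusted p under 0.05), led by Ostc (-0.50), Tram1 (-0.29) and Ssr2 (-0.25).
Kdelr3 (UPRE on the opposite strand): ggccgccccgCCACGTCAccgcgcggcc
Sec23a (UPRE, after the start site): TGACGTGG

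Of 24 other folding factors 5 fell, among them the prolyl isomerases Fkbp7 (-0.60), Fkbp14 (-0.58) and Fkbp11 (-0.44), and Calr3, a relative of calreticulin whose level lay near the median probe set, rose (0.44). Of 22 other disulfide and redox factors 3 fell and 2 rose (the latter near the share over all genes), with Pdia5 at -0.48, Tmx2 at 0.37 and Selenom at -0.28. Of 28 other degradation factors 1 fell and 3 rose, with a median change of 0.09, counts near the shares over all genes. The 3 with the lowest p were Erlin1, which rose by 0.37, Ufd1, which rose by 0.27 and is part of the complex that pulls substrates out of the membrane, and Selenos, which recruits that complex to the derlins and fell by 0.33.

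Of 12 other sensors and their proteases 3 fell and none rose (0 also at an unadjusted p under 0.05). Eif2ak3, which encodes the sensor PERK, was at -0.30 (limma, adjusted p = 0.0148). Creb3l1 (OASIS) and Creb3l2, membrane-bound relatives of ATF6 that drive secretory pathway genes in collagen-secreting cells, were at -0.89 and -0.46 (limma, adjusted p = 0.00862 and 0.0169). Of 12 genes of the PERK and ATF4 arm 5 fell and 3 rose. Trib3 (-1.63), Chac1 (-1.70) and Asns (-0.74) had the lowest p, Ddit3 (CHOP) was at -0.39 (limma, adjusted p = 0.00866), and Atf4 did not pass (-0.11, limma adjusted p = 0.246). The falls of Trib3 and Chac1 were larger than that of any of the 34 ER genes, and no test compared them. Of 11 genes of this arm with a window 5 held a CARE (Asns, Atf3, Chac1, Nupr1 and Trib3) and none an ERSE, ERSE-II or UPRE, while of the 29 ER genes Herpud1 held a CARE. The site of Chac1, which fell, and that of Atf3, which rose by 0.80, are shown beside that of Herpud1, all read on the opposite strand.
Chac1 (CARE): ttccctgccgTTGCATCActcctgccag
Atf3 (CARE): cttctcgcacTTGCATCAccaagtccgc
Herpud1 (CARE): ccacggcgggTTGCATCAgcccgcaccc

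**Figure D5:**
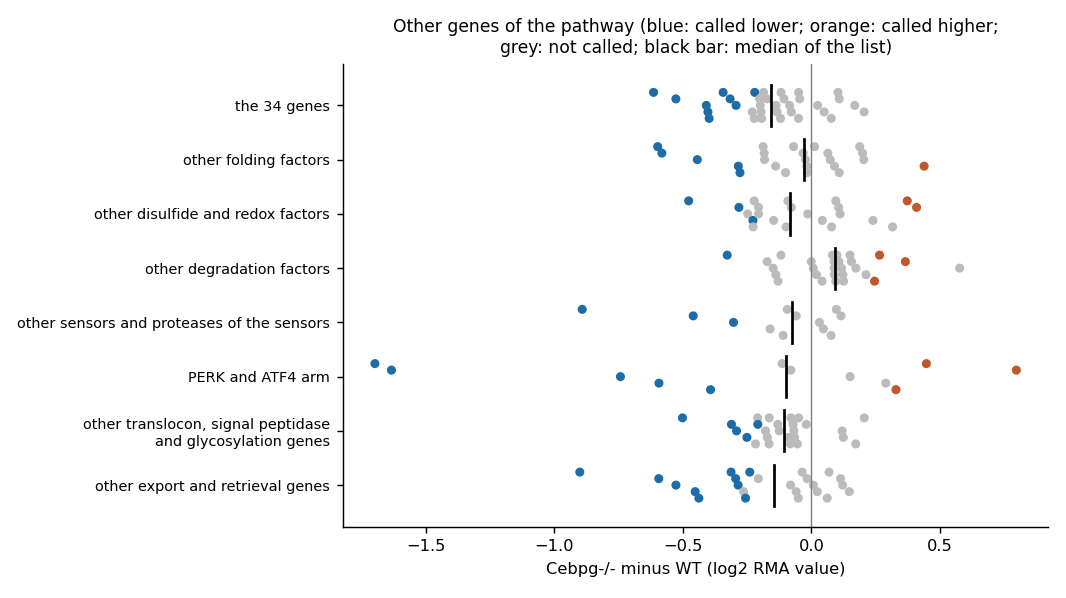
Change of each gene, Cebpg-/- minus WT on the log2 scale (x axis), in the 34 genes and 7 lists of other pathway genes (rows); blue points were called lower, orange points called higher and grey points not called, and black bars are list medians. The export and retrieval list has 10 blue points and no orange one, and the PERK and ATF4 arm has points from -1.70 to 0.80.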

How the data were processed

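RNA of 8 MEF samples (4 WT, 4 Cebpg-/-, grouped by their titles) was hybridised to 1 Affymetrix array each. The deposited log2 values, 1 per probe set and array, were made by the authors with RMA, per the submitters' processing notes. The RMA version is not given in the sources used here. This method equalises overall brightness between arrays and compresses changes of dim probe sets. No read depth exists, and the number of arrays limits the precision.

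Of 45101 probe sets 64 controls were left out. Of the other 45037, 34945 name 1 gene in the platform's annotation, with 34741 symbols updated by Entrez number through RefSeq (GRCm38.p6). The brightest by mean over the 8 arrays stood for each of 18193 genes. A model of genotype alone was run over the 45037 probe sets in R 4.3.3 with limma 3.58.1 (lmFit, eBayes). Genes were called at a Benjamini-Hochberg adjusted p under 0.05 over the 18193 genes. The fit was tested on simulated data. The members, roles, lists, motifs and alternatives were chosen with earlier results of these data known. Named are the 34 genes, with every array for those called and for the uncalled one with the lowest p in each role, up to 3 called genes of each other list, and Eif2ak3, Atf4 and Ddit3; other genes named, and array values of Dnajb9, were picked after their values were seen. Protein sequences were not used here. Alternatives were other scalings, probe set rules, variance models, thresholds, a replicate block, a covariate and leaving out arrays.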

Additional observations from a re-analysis of the deposited data

Results flagged for a closer look

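In 4 of 68 groups of 4 arrays examined for the 34 genes, 1 array stood far from the other 3 by Dixon's test at 95%. Chance gives about 1 in 20 such groups. Dnajb11 read 8.47 on Cebpg-/- replicate 3, where the other Cebpg-/- arrays read 8.57 to 8.59 (gap over range 0.861). Pdia3 read 11.11 on the same array, against 11.18 to 11.19 (0.883). Sdf2l1 read 7.30 on WT replicate 2, against 7.02 to 7.07 (0.834), and Calr read 11.30 on that array, against 11.14 to 11.16 (0.849). None of these 4 genes was called.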

How the results depend on the processing

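Of the 34 genes 9 were lower in the reported fit and none was higher in any setting. Leaving out 1 array gave between 5 and 9 lower genes, and none higher, where 2.17% to 5.33% of all genes were called lower. The count was 15 with an intensity trend and robust hyperparameters, where 4.58% of all genes were called lower. It was 15 at an adjusted p under 0.1, 0 at 2-fold or more, 1 with the leukocyte covariate, and 1 with WT replicate 1 and Cebpg-/- replicate 1 both left out. The last 2 fits called 1.81% and 2.91% of all genes. Shares of all genes at an adjusted p under 0.1 and at 2-fold or more were not counted. Quantile normalization gave 10, subtraction of each array's median 7, and a filter on dim probe sets 12, where 4.75%, 3.21% and 6.72% of the genes tested were called lower. Derl1 passed in all 18 refits, P4hb, Pdia6, Sec24d and Xbp1 in 16 (not with the covariate or with both arrays left out), Manf in 13, Herpud1 in 11, Hyou1 in 7 and Hspa5 in 6. Deviations of same-numbered arrays from their group means had correlations of -0.36, 0.15, 0.02 and 0.05 for replicates 1 to 4. Only WT replicate 2 correlated best with the array of its own number. With 4 arrays in each group these correlations cannot decide whether the numbers pair the samples. With the replicate number as a block 7 were lower (not Hspa5 and Hyou1), where 2.7% of all genes were called lower. With the leukocyte covariate the median change was -0.086 for chaperones, -0.21 for ERAD and -0.097 for sensors, and ERAD was at -0.21 with both arrays left out. Leaving out 1 array gave medians from -0.17 to -0.080 for chaperones, -0.19 to -0.14 for ERAD, -0.04 to 0.07 for sensors, -0.17 to -0.10 for disulfide isomerases and -0.23 to -0.18 for translocation and export. Among the 34 genes signs changed in 4, none of them called in any setting. Sdf2l1 was at -0.011 after quantile normalization, -0.066 with the covariate, -0.039 with both arrays left out, and between -0.011 and 0.090 with 1 array left out. Derl3 was at 0.068 and 0.012, and Wfs1 at -0.076 and -0.0085, with the covariate and with both arrays left out. Atf6 was at 0.039 with the mean of its probe sets, and between -0.12 and 0.012 with 1 array left out. The cause of these changes was not tested.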
